A study of Homo sapiens with 12 samples.

Results

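The genes described here encode the subunits of the proteasome, its activators and inhibitor, and the chaperones that assemble it. They are the protein-coding genes whose symbol starts with PSMA, PSMB, PSMC, PSMD, PSME, PSMF or PSMG followed by a digit, which gave 49 of the 57773 gene identifiers counted. Of these, 46 passed the filter on low counts among 22984 genes in all, and their RNA was measured across 4 groups of 3 sequencing libraries from HuH-7, an established human hepatoma line. PSMB3, a further subunit of the core, matched no identifier by ID and is named only. The symbol rule also took in PSMC3IP, a meiotic recombination factor, and PSME3IP1, a protein that binds the activator PSME3, neither of which is a subunit. They are kept in the counts below and described separately.

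The groups were the precipitate of a V5-tagged HuR SUMOylation mutant (mutant RIP), the precipitate of V5-tagged wild-type HuR (WT RIP), the input of the mutant line (mutant input) and the input of the wild-type line (WT input), with 3 libraries each. HuR, the product of ELAVL1, is a protein that binds mRNAs, and the mutant HuR(K120/182R) has arginine in place of a pair of lysines that can carry the small protein SUMO. RIP is RNA immunoprecipitation, here through the V5 tag, and input is RNA of the same line without that step. Both lines stably expressed their tagged HuR; the labels do not say whether a line was 1 clone, and the cells' own ELAVL1 gene was not stated to be removed. A mock precipitation and a line without the tagged protein were not used here, so RNA above input was not set against RNA that sticks to beads. Each RIP library started from 16 to 77 ng of RNA and each input from 250 ng, so an effect of the starting amount and one of precipitation cannot be told apart. Whether the 3 libraries of a group are separate cultures is not in the labels, and p-values therefore reflect library-to-library spread that may be technical.

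The proteasome is the protease that degrades proteins tagged with ubiquitin. Its barrel-shaped core is built from rings of alpha subunits (PSMA), which form the gate, and beta subunits (PSMB), some of which cut peptide bonds. The regulatory particle on top holds a ring of ATPases (PSMC) that unfold the substrate, and non-ATPase subunits (PSMD) that bind and remove ubiquitin. Other caps (PSME) and an inhibitor (PSMF1) bind the same core, and dedicated chaperones (PSMG1 to PSMG4 for the core, PSMD5, PSMD9 and PSMD10 for the ATPase base) guide its assembly. All nucleated cells, liver cells among them, depend on it to clear damaged and short-lived proteins.

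HuR is known for binding U-rich and AU-rich stretches, mostly in 3′ untranslated regions (3′ UTRs). The most T-rich 30 bases of the 3′ UTR are therefore shown for 4 members that were among the highest in the WT precipitate relative to its input and for 4 among the lowest, in the annotated main transcript (GENCODE release 44 on GRCh37, the hg19 build; T stands for U of the RNA). They are written 5′ to 3′ on the strand of the gene, and capitals mark runs of at least 4 T. The first 4 are PSMA3 (chr14:58738691-58738720, plus strand), PSMC3IP (chr17:40724889-40724918, minus strand), PSMA2 (chr7:42957089-42957118, minus strand) and PSMA6 (chr14:35786668-35786697, plus strand).
PSMA3: tgtccaaTTTTcattaaaTTTTTgtcttat
PSMC3IP: ccttgTTTTTggttggcTTTTgttgttgtt
PSMA2: tttaaagtatgTTTTgTTTTgcagacTTTT
PSMA6: TTTTggaaaataattgcatcctgttgTTTT
The other 4 are PSME1 (chr14:24608105-24608134, plus strand), PSMD2 (chr3:184026773-184026802, plus strand), PSMA7 (chr20:60711874-60711903, minus strand) and PSMD8 (chr19:38874165-38874194, plus strand).
PSME1: ttgcttctgttgagaTTTTTccctcacctt
PSMD2: ttgtcgcctcctgctcTTTTgttactgagt
PSMA7: tgtctttgcttgtaaTTTTTaaattcatat
PSMD8: gttcttatatctgaagaacttggaggTTTT

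The windows of the first 4 held 17 T in PSMA3, 19 in PSMC3IP, 17 in PSMA2 and 15 in PSMA6, with 2 or more runs of 4 T in each. Those of the other 4 held 15 T in PSME1, 14 in PSMD2, 17 in PSMA7 and 13 in PSMD8, with 1 run in each. Over coding genes with 3′ UTRs of any length none of these counts is rare: 49.7% of 13832 coding genes have a window with at least 19 T, 68.8% one with at least 17, 81.6% one with at least 15 and 90.1% one with at least 13. A longer 3′ UTR offers more windows, and some of these are short, with 109 bases in PSMA3 and 124 in PSMA7. The median over 9797 protein-coding genes was 1363 bases. How usual such counts are among short 3′ UTRs was not tested. How many coding genes hold as many runs of 4 T was not counted, and these genes were chosen by their WT enrichment. The runs are therefore shown only and not read as a difference between the highest and the lowest members. PSMA7, whose RNA was lower in both precipitates than in the inputs, held as many T as PSMA3, whose RNA was higher in both.

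In the inputs, mRNA levels were uneven within each ring of the proteasome. On a length-corrected scale (RPKM, the normalised level per kilobase of annotated exon, WT input means) PSMA7 stood at 127, while the other alpha subunits lay between 7.15 (PSMA2) and 27.9 (PSMA1). The beta subunits lay between 20.1 (PSMB2) and 63.0 (PSMB4), the ATPases between 5.07 (PSMC6) and 28.7 (PSMC3), and the non-ATPases between 1.63 (PSMD6) and 30.8 (PSMD7). Among the caps, PSME1 was highest at 21.2 RPKM and the inhibitor PSMF1 lowest at 5.42, and among the chaperones PSMG3 was highest at 16.6 and PSMG4 lowest at 0.658. With the length of the main transcript in place of all annotated exons, a choice added after the data were seen, PSMA7 was again the highest alpha subunit (232), but PSMB1 (151) stood above PSMB4 (146), PSMC5 (50.1) above PSMC3 (42.5), PSMD14 (66.8) above PSMD7 (51.0) and PSMG2 (46.7) above PSMG3 (22.9). The lowest places changed too, with PSMA5 (15.7) below PSMA2 (41.8) and PSMC1 (8.61) below PSMC6 (17.5). Likewise PSMD12 (7.70) stood below PSMD6 (10.8) and PSMD9 (6.82) below PSMG4 (8.73). PSMB2 (20.5) and PSMF1 (6.89) stayed lowest of their classes.

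The subunits that mark specialised proteasomes were at or near 0, with PSMB10 as the exception. PSMA8, an alpha subunit of the testis, had 0 counts in all 12 libraries, PSMB9 had 0 to 4 and PSMB11, the thymus subunit, had 2 counts in WT input 3 and 0 elsewhere, so none of the 3 was tested. Libraries held 31774994 to 73149117 counts, and a count of 0 allows up to 3 counts at that depth, counting error alone considered. PSMB8, which replaces PSMB5 when interferon is present, passed the filter with 10, 6 and 8 counts in mutant RIP, 4, 12 and 4 in WT RIP, 4, 1 and 10 in mutant input, and 0, 8 and 2 in WT input, and is too low to compare. PSMB10, the third interferon-induced subunit, was measurable at 12.6, 13.9 and 9.93 CPM (counts scaled to a common library size, with TMM factors) in mutant RIP, 7.06, 11.3 and 8.29 in WT RIP, 15.5, 14.8 and 12.5 in mutant input, and 8.16, 9.93 and 12.2 in WT input. It passed no test.

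**Figure D1:**
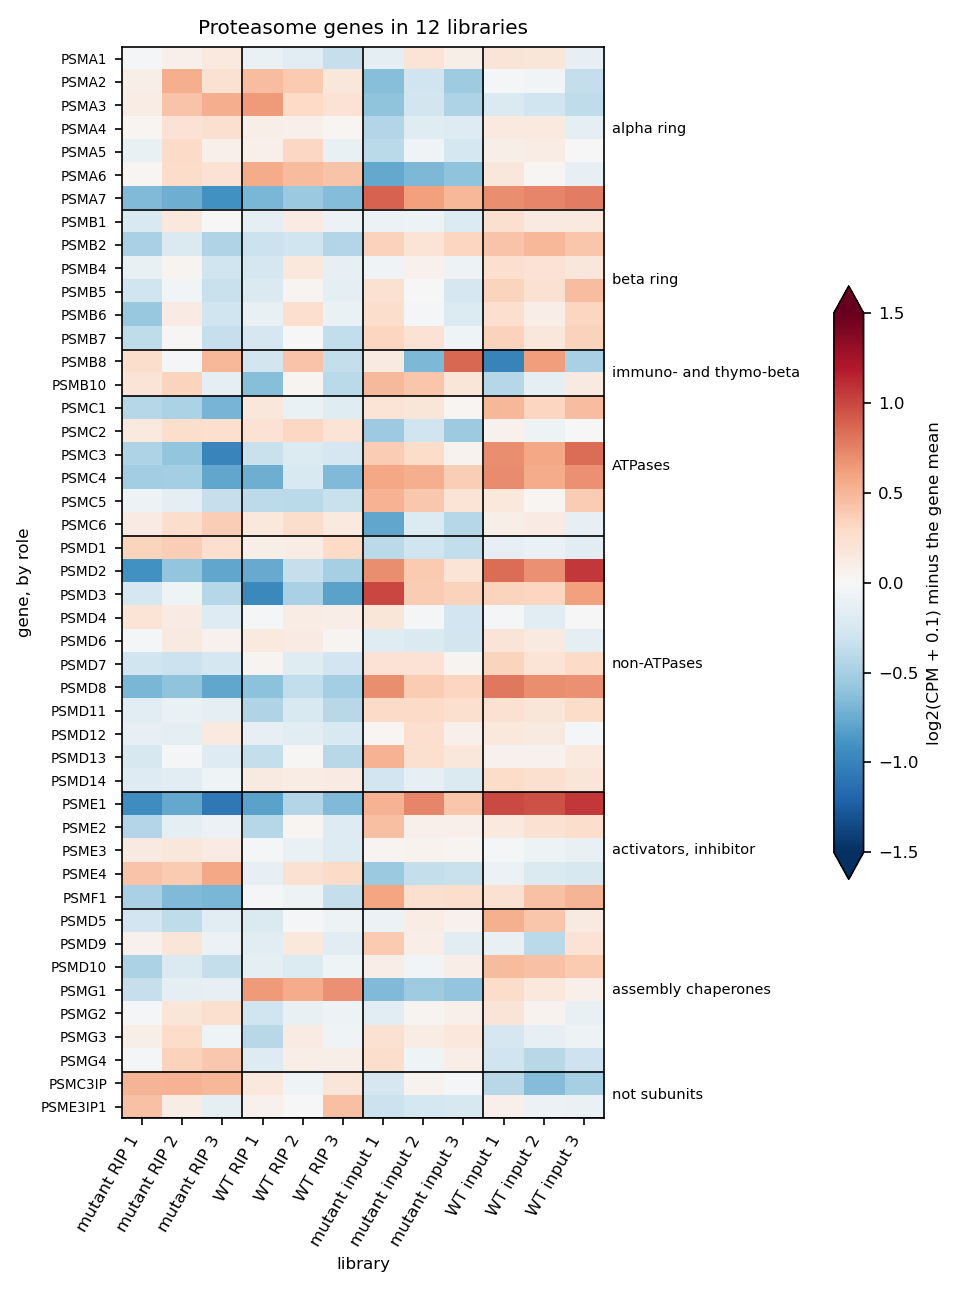
Level of each of the 46 tested genes (rows, grouped by role) in each of the 12 libraries (columns), as log2(CPM + 0.1) minus the gene's mean, in log2 units; red is above and blue below that mean. PSMA7, PSMD2, PSMD8 and PSME1 are red in inputs and blue in precipitates, PSMA2 and PSMA3 show the opposite, and PSMG1 is red in the WT RIP columns; PSMB8 rests on 0 to 12 counts per library.

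The facts of the whole series that touch these genes are few. Nuclear protein-coding genes held 66.7% of counts in mutant RIP and 69.8% in WT RIP, against 25.2% in mutant input and 33.8% in WT input, so the proteasome genes took up 0.313% and 0.358% of all counts in the mutant and WT precipitates and 0.138% and 0.210% in the mutant and WT inputs. Of the counts of nuclear coding genes alone they made up 0.469% ± 0.00913 in mutant RIP, 0.513% ± 0.0202 in WT RIP, 0.547% ± 0.0199 in mutant input and 0.619% ± 0.0261 in WT input (SD, n = 3 each). ELAVL1, the gene of the precipitated protein, averaged 27.2 CPM in mutant RIP, 34.5 in WT RIP, 48.3 in mutant input and 58.2 in WT input, and counts per gene do not separate the added from the native copy. All 11 hepatocyte and hepatoma markers were detected and all 11 had lower levels in the precipitate of each line than in its input. Of 7 markers of other cell types, 5 did not pass the filter on low counts; collagen (COL1A1), decorin (DCN) and VWF stayed at or under 0.1 CPM on average in every group, and PTPRC averaged 0 CPM in mutant RIP, 0.0204 in WT RIP, 0.556 in mutant input and 0.114 in WT input. The T cell marker CD3E averaged 2.19 CPM in mutant RIP and 2.28 in WT RIP, against 0.341 in mutant input and 0.270 in WT input. CD68 averaged 2.30 CPM in mutant RIP and 1.74 in WT RIP, against 4.33 in mutant input and 3.01 in WT input, and shares 81.6% of its exon bases with another gene. The part of these markers in the results below was not tested. All fold changes are log2 values relative to the typical gene, each followed by ± its standard error (SE), and calls are by edgeR's quasi-likelihood test at a Benjamini-Hochberg adjusted p under 0.05.

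The first question was which proteasome mRNAs each HuR precipitate held at more or less than the input level. In the mutant line 12 of 46 were higher in the precipitate and 18 lower, where 29% of all tested genes were higher and 28% lower (57% in either direction), and 26.6% and 36.1% of protein-coding genes. In the WT line 8 were higher and 19 lower, where 25.6% of all genes were higher and 25.4% lower (50.9% in either direction), and 22% and 34% of protein-coding genes. The members' median was −0.08 in the mutant line and −0.20 in the WT line, against medians of −0.11 and −0.13 over protein-coding genes and of 0.07 and 0.06 over all genes. These shares are thus near those of coding genes in general, and what follows describes which subunits stood at each end. Without PSMC3IP and PSME3IP1 the counts were 10 higher and 18 lower of 44 in the mutant line, and 7 and 19 of 44 in the WT line. Scaling by total library size, which moves the median of all genes to 1.38 in the mutant line and 1.12 in the WT line, turned the split to 38 higher and 0 lower in the mutant line and 37 and 1 in the WT line, with 73.1% and 68.6% of all genes then called higher. Under that scaling every lower call except PSMA7 and PSME1 changed sign in the mutant line, and in the WT line every one except PSMA7, PSMC4, PSMD2, PSMD3, PSMD8 and PSME1. Such a change of scale shifts the members together. The count of 8 higher in the WT line became 5 without WT RIP 3 or without WT input 3. The reads of 11 tested members are uncertain because at least 10% of their exon bases are shared with another annotated gene: PSMA1, PSMA2, PSMA6, PSMB8, PSMB10, PSMC1, PSMC3IP, PSMC5, PSMD7, PSMD9 and PSMG4.

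Alpha ring mRNAs stood at opposite ends. PSMA3, PSMA2 and PSMA6 were higher in the precipitate of each line, and PSMA7 was lower in each. PSMA3 (ENSG00000100567, chromosome 14, 58711561 to 58738730) had 73.7, 92.4 and 99.8 CPM in mutant RIP against 45.0, 56.6 and 49.5 in mutant input, and 106, 84.0 and 79.8 CPM in WT RIP against 59.0, 55.7 and 52.5 in WT input. Every precipitate library lay above every input library of its line, by 0.81 ± 0.14 in the mutant (adjusted p = 1.49e-05) and 0.69 ± 0.14 in the WT (adjusted p = 0.000142). PSMA7 (ENSG00000101182, chromosome 20, 60711789 to 60718496, minus strand) had 84.4, 80.4 and 71.2 CPM in mutant RIP against 247, 206 and 190 in mutant input, and 83.5, 91.0 and 85.5 CPM in WT RIP against 218, 222 and 228 in WT input. Here every precipitate library lay below every input library, with a log2 fold change of −1.45 ± 0.13 in the mutant (adjusted p = 6.85e-10) and −1.36 ± 0.13 in the WT (adjusted p = 3.28e-09).

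Within 1 library the scale cancels, so the pair can also be set against each other as a ratio of counts. There were 1.14 ± 0.264 PSMA3 counts per PSMA7 count in mutant RIP and 1.04 ± 0.20 in WT RIP, against 0.239 ± 0.0495 in mutant input and 0.250 ± 0.0205 in WT input (SD, n = 3 each). The lowest precipitate ratio (0.873) lay above the highest input ratio (0.274).

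PSMA6 had 52.0, 62.1 and 59.5 CPM in mutant RIP against 30.01, 32.0 and 33.6 in mutant input (0.86 ± 0.12, adjusted p = 7.97e-07), and 75.5, 71.1 and 68.6 CPM in WT RIP against 57.6, 51.6 and 46.8 in WT input (0.46 ± 0.12, adjusted p = 0.00175). PSMA2 had 69.8, 95.4 and 76.8 CPM in mutant RIP against 42.1, 53.2 and 45.1 in mutant input (0.78 ± 0.14), and 90.8, 86.4 and 73.9 CPM in WT RIP against 65.0, 63.7 and 51.0 in WT input (0.48 ± 0.14). Precipitates and inputs of each line did not overlap for either gene, but 14.1% of the exon bases of PSMA6 and 17.2% of those of PSMA2 are shared with another gene on the same strand. PSMA4 (0.43 ± 0.12) and PSMA5 (0.33 ± 0.13) were higher in the mutant precipitate and did not pass in the WT line (0.02 ± 0.12 and 0.03 ± 0.13), and the PSMA5 libraries overlapped. PSMA1 did not pass in the mutant line (0.01 ± 0.13) or in the WT line (−0.29 ± 0.13).

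Beta ring mRNAs were lower or did not pass, in both lines. PSMB2 had 47.6, 57.3 and 48.7 CPM in mutant RIP against 84.5, 76.9 and 83.1 in mutant input, and 53.0, 54.0 and 49.1 CPM in WT RIP against 89.5, 94.0 and 89.0 in WT input, with no overlap. Its log2 fold change was −0.67 ± 0.11 in the mutant (adjusted p = 1.84e-05) and −0.80 ± 0.11 in the WT (adjusted p = 2.1e-06). PSMB7, the trypsin-like subunit, was lower in the mutant (−0.39 ± 0.14, libraries overlapping) and in the WT (−0.49 ± 0.14). PSMB5, the chymotrypsin-like subunit that proteasome inhibitor drugs bind, was −0.22 ± 0.13 in the mutant line, which did not pass, and was lower in the WT line (−0.44 ± 0.13, adjusted p = 0.00669). PSMB6, the caspase-like subunit, PSMB1 and PSMB4 passed in neither line, with values of −0.24 to 0.11 in the mutant and −0.28 to −0.20 in the WT. PSMB4, highest of this ring by RPKM, had 107, 119 and 93.5 CPM in mutant RIP, 96.8, 128 and 106 in WT RIP, 111, 121 and 109 in mutant input, and 138, 134 and 130 in WT input.

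The ATPases of the regulatory particle split. PSMC1, PSMC3, PSMC4 and PSMC5 were lower in the precipitates of both lines, and PSMC2 and PSMC6 were higher in the mutant precipitate. PSMC4 had 21.4, 21.6 and 17.9 CPM in mutant RIP against 46.0, 45.0 and 39.8 in mutant input (−1.10 ± 0.13, adjusted p = 1.03e-07), and 18.5, 26.2 and 19.5 CPM in WT RIP against 50.2, 45.1 and 49.6 in WT input (−1.17 ± 0.13, adjusted p = 5.72e-08). PSMC6 had 40.2, 44.4 and 47.8 CPM in mutant RIP against 21.5, 32.1 and 27.4 in mutant input (0.71 ± 0.13, adjusted p = 5.72e-05), and 41.4, 44.6 and 41.1 CPM in WT RIP against 39.3, 40.5 and 34.0 in WT input (0.16 ± 0.13, adjusted p = 0.317). The precipitate libraries of PSMC6 lay close together in both lines, and it was the mutant inputs that stood low.

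PSMC2 had 66.0, 71.7 and 70.7 CPM in mutant RIP against 40.9, 48.3 and 40.8 in mutant input (0.68 ± 0.11), and 69.2, 73.7 and 68.4 CPM in WT RIP against 62.5, 56.5 and 59.6 in WT input (0.24 ± 0.11, not passing). PSMC3 stood at −0.91 ± 0.13 in the mutant and −0.97 ± 0.13 in the WT line. PSMC5 stood at −0.57 ± 0.12 in the mutant and −0.58 ± 0.12 in the WT line, and PSMC1 at −0.67 ± 0.12 in the mutant and −0.46 ± 0.12 in the WT line. PSMC1 is the least certain of these, since 76.1% of its exon bases lie opposite NRDE2 and its 13 pseudogene copies held 27.0% as many counts as the gene.

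Of the 11 non-ATPases, 1 was higher and 6 lower in each line. PSMD2, the scaffold subunit that receives ubiquitin-like domains, had 22.3, 27.6 and 24.4 CPM in mutant RIP against 67.8, 55.1 and 48.1 in mutant input (−1.20 ± 0.14, adjusted p = 7.28e-08), and 24.8, 32.9 and 29.6 CPM in WT RIP against 74.7, 67.6 and 87.1 in WT input (−1.39 ± 0.14, adjusted p = 1.04e-08). PSMD1, the other large scaffold, had 63.9, 65.9 and 60.6 CPM in mutant RIP against 38.4, 41.4 and 39.4 in mutant input (0.68 ± 0.11, adjusted p = 9.75e-06), and 54.1, 55.0 and 62.5 CPM in WT RIP against 46.6, 47.5 and 45.6 in WT input (0.30 ± 0.11, adjusted p = 0.0261). Both genes separated precipitates from inputs in each line, in opposite directions. The count ratio of PSMD1 to PSMD2 was 2.58 ± 0.253 in mutant RIP and 1.99 ± 0.277 in WT RIP, against 0.712 ± 0.131 in mutant input and 0.617 ± 0.0899 in WT input (SD, n = 3 each).

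PSMD8, a lid subunit, had 23.4, 24.99 and 22.0 CPM in mutant RIP against 61.6, 49.2 and 47.3 in mutant input (−1.17 ± 0.12), and 24.7, 29.4 and 26.5 CPM in WT RIP against 65.4, 61.3 and 61.0 in WT input (−1.22 ± 0.12). PSMD3, also of the lid, was lower in both lines, at −0.85 ± 0.16 in the mutant and −1.16 ± 0.16 in the WT, and PSMD7, PSMD11 and PSMD13 lay between −0.47 and −0.41 in the mutant and between −0.59 and −0.33 in the WT. PSMD14, the deubiquitinase of the lid, passed in neither line (0.07 ± 0.11 in the mutant and −0.11 ± 0.11 in the WT). The ubiquitin receptor PSMD4 (mutant 0.09 ± 0.13, WT 0.12 ± 0.13), PSMD6 (mutant 0.28 ± 0.13, WT 0.04 ± 0.12) and PSMD12 (mutant −0.15 ± 0.12, WT −0.27 ± 0.12) did not pass either.

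The caps held both the lowest and 1 of the higher members. PSME1 (ENSG00000092010, chromosome 14, 24605372 to 24608176), which pairs with PSME2 in an interferon-induced cap, had 9.80, 11.0 and 8.85 CPM in mutant RIP against 27.0, 31.2 and 25.1 in mutant input, and 10.7, 13.9 and 11.8 CPM in WT RIP against 37.3, 36.5 and 39.2 in WT input. Every precipitate library was below every input library, with a log2 fold change of −1.49 ± 0.13 in the mutant (adjusted p = 5.01e-10) and −1.64 ± 0.13 in the WT (adjusted p = 1.89e-10). PSME4 (ENSG00000068878, chromosome 2, 54091206 to 54198130, minus strand), a large cap of the nucleus, had 107, 105 and 119 CPM in mutant RIP against 54.3, 62.4 and 63.2 in mutant input (0.88 ± 0.13, adjusted p = 1.66e-06), and 73.5, 93.8 and 97.9 CPM in WT RIP against 75.4, 68.7 and 67.7 in WT input (0.32 ± 0.13, adjusted p = 0.0338). The mutant libraries did not overlap, whereas WT RIP 1 lay below WT input 1. The count ratio of PSME4 to PSME1 was 11.3 ± 1.98 in mutant RIP and 7.31 ± 0.842 in WT RIP, against 2.18 ± 0.299 in mutant input and 1.88 ± 0.147 in WT input (SD, n = 3 each).

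PSMF1, the inhibitor of the core, had 30.3, 27.0 and 26.5 CPM in mutant RIP against 64.4, 50.4 and 51.4 in mutant input (−0.99 ± 0.13), and 41.9, 40.5 and 33.3 CPM in WT RIP against 49.9, 57.9 and 60.7 in WT input (−0.54 ± 0.13). PSME2 was lower in both lines (−0.43 ± 0.14 in the mutant and −0.41 ± 0.14 in the WT), and PSME3, the nuclear relative of that pair, passed in neither (mutant 0.10 ± 0.11, WT −0.03 ± 0.11).

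Among the assembly chaperones, PSMG1, which with PSMG2 starts the alpha ring, was higher in the precipitate of each line (0.40 ± 0.12 in the mutant and 0.46 ± 0.11 in the WT). PSMD10 (mutant −0.40 ± 0.12, WT −0.57 ± 0.12) and PSMD5 (mutant −0.31 ± 0.12, WT −0.48 ± 0.12), chaperones of the ATPase base, were lower in both. PSMG4 passed in the WT line alone (0.35 ± 0.15, adjusted p = 0.0498). PSMG2, PSMG3 and PSMD9 passed in neither line. Of the symbol matches that are not subunits, PSMC3IP had 19.4, 19.5 and 19.3 CPM in mutant RIP against 11.4, 14.1 and 13.3 in mutant input (0.58 ± 0.13), and 15.1, 13.0 and 15.5 CPM in WT RIP against 10.1, 8.64 and 9.58 in WT input (0.62 ± 0.13). PSMC3IP shares 30.1% of its exon bases with MLX on the opposite strand. PSME3IP1 was higher in the mutant precipitate (0.44 ± 0.14) and did not pass in the WT line (0.23 ± 0.14).

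**Figure D2:**
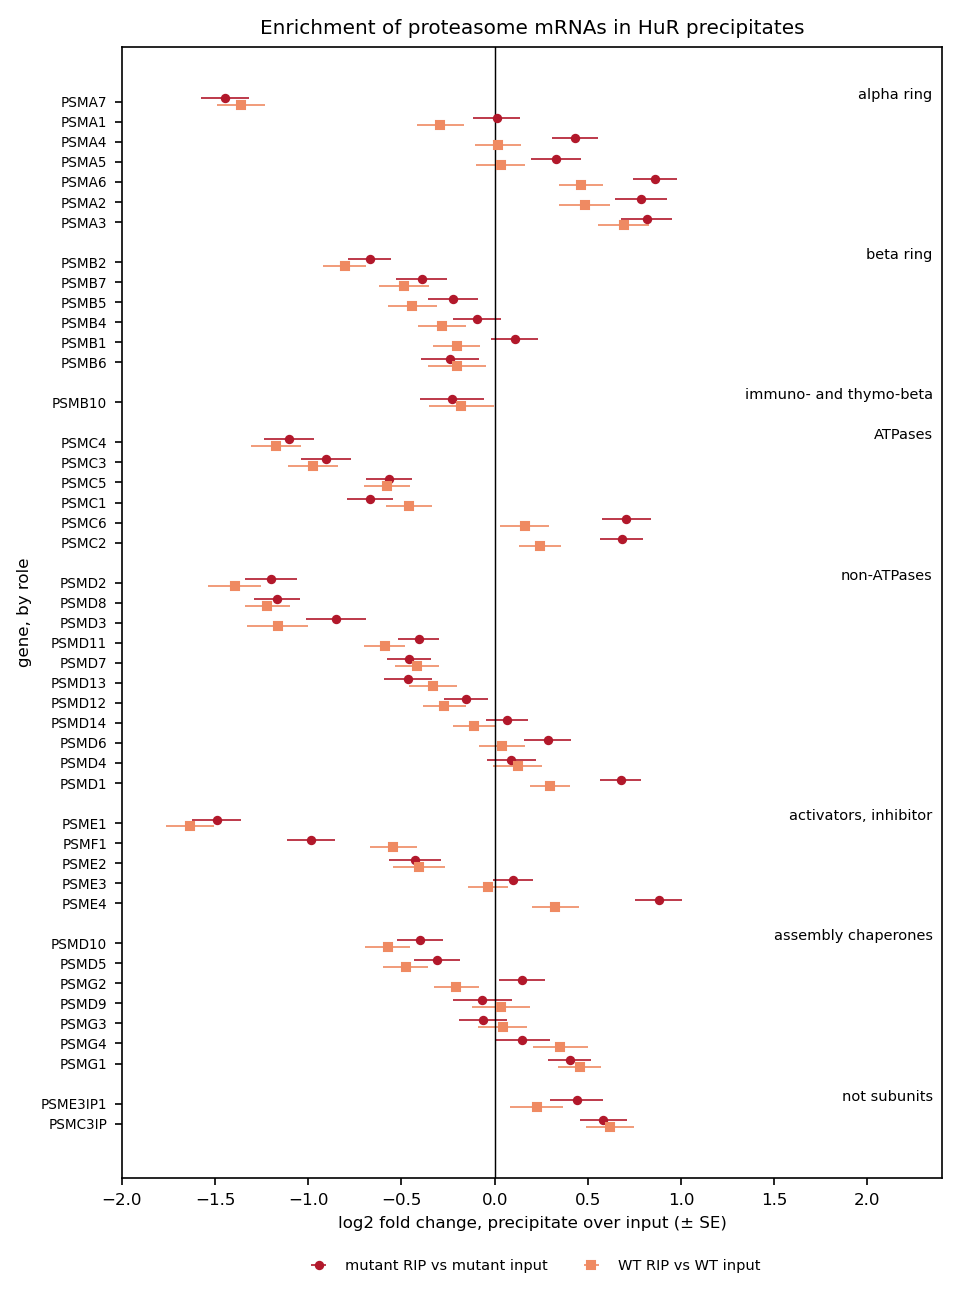
Log2 fold change of precipitate over input (horizontal axis) with its SE for 45 tested genes (PSMB8, under 1 CPM, is not drawn), listed by role down the page, with red circles for the mutant line and orange squares for the WT line. PSMA7 lies at −1.45 and −1.36 and PSMA3 at 0.81 and 0.69 in the mutant and WT lines.

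The enrichments of the 2 lines, which share no library, gave 7 members higher in both and 18 lower in both, and 0 in opposite directions. A further 5 passed upward in the mutant line alone, 1 upward in the WT line alone and 1 downward in the WT line alone. Of 14017 protein-coding genes, 2703 were higher in both lines, 4208 lower in both and 3 in opposite directions, so opposite calls were rare in general. Another 1028 coding genes passed upward in the mutant line alone and 385 in the WT line alone. Downward calls in 1 line alone numbered 847 in the mutant and 561 in the WT line. Across the 46 members, which share libraries and base composition within a line and are not replicates, the fold changes correlated with r = 0.941 and rho = 0.929, against 0.875 and 0.899 over 14017 protein-coding genes. Passing in 1 line alone does not show a difference, so the difference of the enrichments was tested itself. By edgeR 0 members passed, where 0.0653% of all genes were higher (0.0856% of protein-coding genes) and 0% lower, with 7 members at an unadjusted p under 0.05 and a smallest adjusted p of 0.174. These 7 were PSME4 (0.55), PSMC6 (0.55), PSMC2 (0.44), PSMA4 (0.42), PSMA6 (0.40) and PSMD1 (0.38), all higher in the mutant line, and PSMF1 (−0.44). The shares of genes given above are for adjusted p, and the share at an unadjusted p under 0.05 was not counted. The 7 are therefore named only and not read as a result about the members. DESeq2, which called 1.65% of all genes higher and 0.239% lower, called 1 member, PSME4 (0.55 ± 0.18, adjusted p = 0.0416). The members' median difference was 0.13, against 0.00 over all genes. The smallest SE of a member in this difference was 0.152.

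The second question was how the 2 precipitates differed. Between mutant RIP and WT RIP 2 members were higher and 4 lower, where 9.87% of all genes were higher and 9.76% lower (19.6% in either direction; 11.6% and 13.4% of protein-coding genes), and the members' median was −0.02 against 0.01 over all genes. The members' shares were 4.35% and 8.7%. The lower ones were PSMG1, PSMC1, PSMF1 and PSMC3, and the higher ones PSMD3 and PSMC3IP, with all 3 mutant libraries on 1 side of all 3 WT libraries for each.

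PSMG1 (ENSG00000183527, chromosome 21, 40546695 to 40555414, minus strand) had 16.6, 19.2 and 19.3 CPM in mutant RIP against 32.9, 31 and 34 in WT RIP. It was 1.77-fold lower in the mutant precipitate (−0.83 ± 0.12, adjusted p = 1.65e-05). PSMC1 had 20.8, 20.2 and 17.3 CPM in mutant RIP against 31.6, 26.2 and 24.8 in WT RIP (−0.50 ± 0.12, adjusted p = 0.00496), with the overlap and pseudogene copies named above. These were the members whose call held in each of the 21 alternative settings.

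PSMF1 had 30.3, 27.0 and 26.5 CPM in mutant RIP against 41.9, 40.5 and 33.3 in WT RIP (−0.46 ± 0.13, adjusted p = 0.0115). PSMC3 had 29.1, 26.5 and 20.0 CPM in mutant RIP against 31.6, 34.6 and 33.6 in WT RIP (−0.40 ± 0.13, adjusted p = 0.0342). PSMD3 had 25.5, 28.9 and 22.5 CPM in mutant RIP against 15.5, 21.7 and 17.4 in WT RIP (0.49 ± 0.16, adjusted p = 0.0351). In PSMD3 the gap was narrow, with mutant RIP 3 just above WT RIP 2. PSMC3IP was higher by 0.42 ± 0.13 (adjusted p = 0.0197) in the mutant precipitate. The count of 4 lower became 2 without WT RIP 1, without mutant RIP 2 or without mutant RIP 3, and the count of 2 higher became 0 without mutant RIP 2, 3 without mutant RIP 3, and 1 without WT RIP 1, WT RIP 3 or mutant RIP 1. The counts were 6 higher and 7 lower with the trend of GC content removed, where 12.1% and 13.3% of all genes were called, and 6 higher and 4 lower by DESeq2, where 12.3% and 9.46% were. They were 0 higher and 4 lower by edgeR with total library size, where 3.38% and 11% of all genes were called.

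The third question was how the lines differed before precipitation. Between mutant input and WT input 2 members were higher and 9 lower, where 7.47% of all genes were higher and 10% lower (17.5% in either direction; 8.91% and 14.2% of protein-coding genes), and the members' median was −0.18 against 0.00 over all genes and −0.03 over protein-coding genes. The lower ones were PSMG1, PSMA6, PSMC6, PSMC3, PSMC2, PSMD14, PSME1, PSMD2 and PSMD10, and the higher ones PSMC3IP and PSMG4. With total library size, which moves the median of all genes to −0.43, the split became 0 higher and 30 lower (1.68% and 29.7% of all genes), and the value of PSMC3IP turned to −0.0018. Leaving out WT input 1 left 2 lower, and leaving out mutant input 3 left 5 lower. The count of 2 higher became 0 without WT input 2 and 1 without WT input 1 or any 1 mutant input. In these bulk libraries fewer expressing cells and less RNA per cell cannot be told apart.

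PSMG1 again stood first, with 13.2, 14.5 and 14.0 CPM in mutant input against 25.5, 23.6 and 22.2 in WT input. It was 1.71-fold lower in the mutant line (−0.77 ± 0.12, adjusted p = 5.97e-05). PSMA6 had 30.01, 32.0 and 33.6 CPM in mutant input against 57.6, 51.6 and 46.8 in WT input, 1.63-fold lower (−0.71 ± 0.12, adjusted p = 0.000174). Neither gene's groups overlapped, and these were the members called in each of the 21 alternatives.

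PSMC6 had 21.5, 32.1 and 27.4 CPM in mutant input against 39.3, 40.5 and 34.0 in WT input (−0.49 ± 0.13, adjusted p = 0.0115). PSMC3 had 52.2, 48.4 and 41.4 CPM in mutant input against 64.7, 59.8 and 71.8 in WT input (−0.47 ± 0.13, adjusted p = 0.0153). PSMC2 (−0.46 ± 0.11), PSMD14 (−0.44 ± 0.11), PSME1 (−0.44 ± 0.13) and PSMD10 (−0.39 ± 0.12) were lower in all 3 mutant inputs, while the libraries of PSMD2 (−0.42 ± 0.14) overlapped. PSMG4, which with PSMG3 supports the alpha ring, had 10.5, 8.34 and 9.38 CPM in mutant input against 7.06, 6.52 and 6.99 in WT input (0.45 ± 0.15, adjusted p = 0.0372), and PSMC3IP was higher by 0.45 ± 0.13 (adjusted p = 0.0172).

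The precipitates and the inputs share no library but come from the same 2 lines. Across both the mutant line had lower PSMG1 and PSMC3 and higher PSMC3IP, with 0 members called in opposite directions. Of 14017 protein-coding genes, 1051 were lower in both, 650 higher in both and 9 called in opposite directions, so opposite calls were rare in general. Over the 46 members the mutant against WT fold changes of precipitates and of inputs correlated with r = 0.742 and rho = 0.688 (0.625 and 0.578 over protein-coding genes). For PSMG1 the enrichment itself was 0.40 in the mutant and 0.46 in the WT line, a difference of −0.05 ± 0.16 (adjusted p = 0.931), and its lower level in mutant RIP stood beside a lower level in mutant input. PSMF1 and PSMC1 were lower and PSMD3 higher in mutant RIP without a call between the inputs (−0.02 ± 0.13, −0.29 ± 0.12 and 0.18 ± 0.16). PSMA6 was lower in mutant input without a call between the precipitates (−0.31 ± 0.12). A call in 1 material alone does not show a difference. By edgeR the difference of enrichments passed for none of these, with −0.44 ± 0.18 for PSMF1 (adjusted p = 0.274) and −0.21 ± 0.17 for PSMC1 (adjusted p = 0.653). It was 0.31 ± 0.23 for PSMD3 (adjusted p = 0.606) and 0.40 ± 0.17 for PSMA6 (adjusted p = 0.287).

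**Figure D3:**
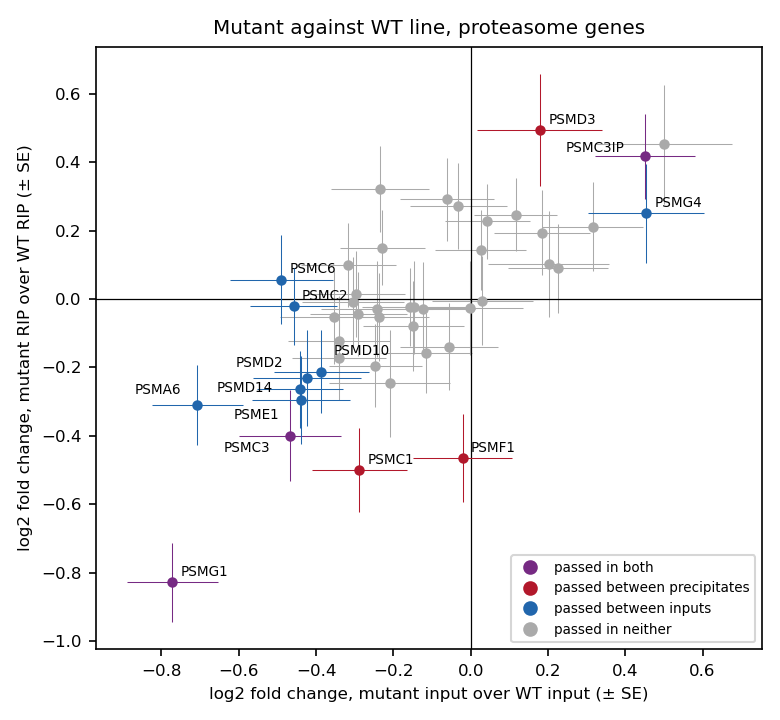
Log2 fold change of mutant over WT, between inputs (horizontal axis) and between precipitates (vertical axis), with SEs, for 45 tested genes (PSMB8 is not drawn); colour shows in which comparison the test was passed. PSMG1 lies alone at the lower left, at −0.77 and −0.83.

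**Figure D4:**
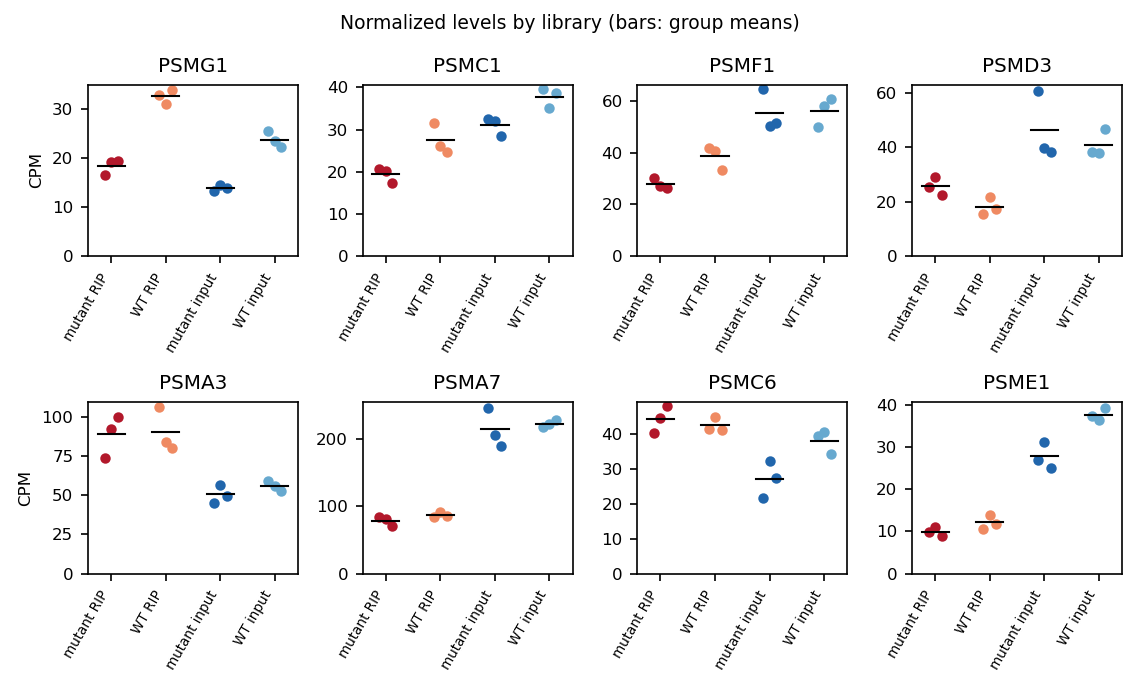
CPM of 8 single genes in every library (points) with the group mean (bar), mutant RIP, WT RIP, mutant input and WT input from left to right. PSMA3 is higher and PSMA7 lower in precipitates than in inputs of both lines, and PSMG1 is lower in the mutant than in the WT line in both materials.

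Genes that work with the proteasome but carry other symbols were described in the same way, as 31 genes in 5 lists. In the mutant enrichment 10 were higher and 12 lower (26.6% and 36.1% of protein-coding genes, 29% and 28% of all genes), and in the WT enrichment 5 were higher and 13 lower (22% and 34% of protein-coding genes, 25.6% and 25.4% of all genes). Among subunits and assembly factors with other names, the small lid subunit SEM1 was higher in both precipitates (1.12 ± 0.16 in the mutant and 1.26 ± 0.16 in the WT) and the ubiquitin receptor ADRM1 lower (mutant −2.27 ± 0.18, WT −2.02 ± 0.18), beyond any of the 46 members in either direction. POMP, which matures the core, passed in neither line (mutant 0.31 ± 0.15, WT 0.11 ± 0.15). Among proteins bound to the proteasome, ECPAS, an adaptor, had 107, 118 and 112 CPM in mutant RIP against 31.5, 34.7 and 34.1 in mutant input (1.75 ± 0.13), and 60.5, 76.7 and 79.1 CPM in WT RIP against 39.7, 34.2 and 41.5 in WT input (0.91 ± 0.12). The deubiquitinase USP14 was higher in both as well (mutant 1.26 ± 0.13, WT 0.62 ± 0.13).

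RPS27A, which encodes ubiquitin fused to a ribosomal protein, was higher in both precipitates (mutant 1.39 ± 0.20, WT 1.05 ± 0.20). Ubiquitin genes hold near-identical sequences whose reads may be shared, so its value is uncertain. NFE2L1, the transcription factor that raises proteasome genes when the protease is blocked, was lower in both precipitates (mutant −1.31 ± 0.13, WT −0.78 ± 0.13) and was not called between the inputs (0.33 ± 0.13, adjusted p = 0.0685). Between mutant RIP and WT RIP 3 of the 31 were higher and 2 lower (9.87% and 9.76% of all genes), ECPAS (0.64 ± 0.12, adjusted p = 0.000622) and USP14 (0.47 ± 0.13, adjusted p = 0.00937) among the higher. Between the inputs 2 were higher and 5 lower (7.47% and 10% of all genes). The difference of enrichments of ECPAS, 0.84 ± 0.17, did not pass (adjusted p = 0.0585). ADRM1 shares 11.4% of its exon bases with a gene on the opposite strand.

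Position of a member among the others went with base composition, as it did for coding genes in general. The Spearman correlation of the enrichment with the GC content of the main transcript was −0.572 in the mutant line and −0.405 in the WT line over 45 members with a mean log2 CPM of at least 2 in the fit, and −0.590 and −0.517 over 9797 protein-coding genes. For the difference of enrichments it was −0.528 over members and −0.507 over protein-coding genes, between the inputs 0.418 and 0.420, and between the precipitates −0.0108 and −0.0260. The points share libraries, so these are descriptions, and the part of GC content in the calls was not tested beyond removing its trend. With that trend removed, 22 of the 30 mutant enrichment calls and 21 of the 27 WT enrichment calls were kept in the same direction. The mutant enrichments of PSMA5 and PSMD3 turned to −0.082 and 0.045. Among 25 members of middle GC content (43.7% to 53.9%) the median was −0.39 in the mutant line and −0.41 in the WT line, where 4672 coding genes of that class had −0.06 in both. Among 14 GC-poor members it was 0.37 in the mutant line and 0.02 in the WT line, where coding genes had 0.38 and 0.18. Among 7 GC-rich members it was −0.24 in the mutant line and −0.20 in the WT line, where GC-rich coding genes had −0.83 and −0.67. These 7 include PSMB8, whose counts are too low to compare. Whether GC-rich members lay above those of middle GC content, or above GC-rich coding genes, therefore cannot be told from these medians.

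**Figure D5:**
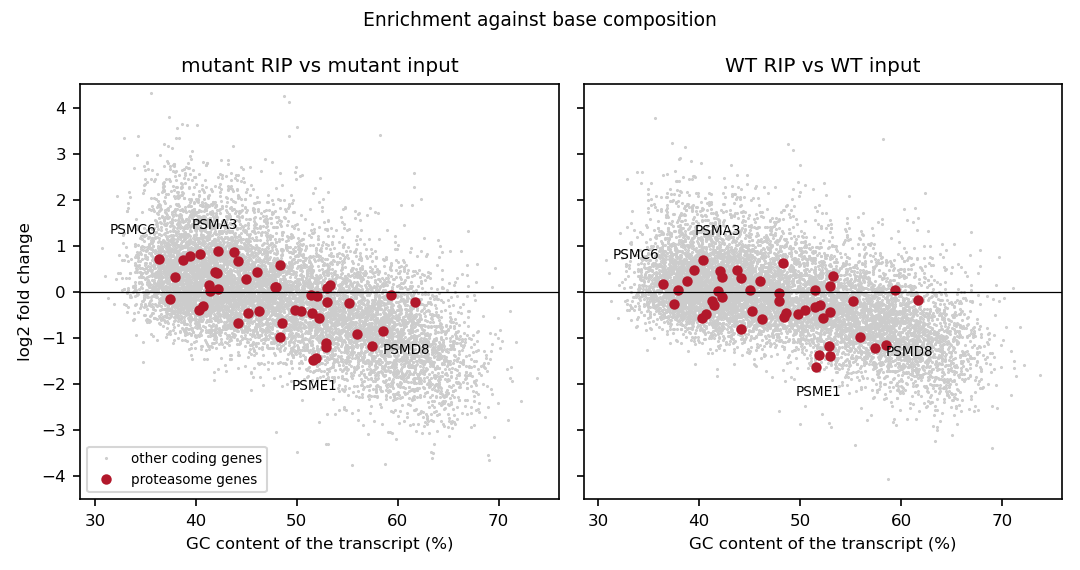
Log2 fold change of precipitate over input (vertical axis) against GC content of the main transcript in percent (horizontal axis) for proteasome genes (red, 45) and other protein-coding genes (grey), the mutant line on the left and the WT line on the right. In both lines values of coding genes fall with GC content, and PSME1 lies at the lower edge of genes of its GC content.

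Proteasome transcripts are short, with a median of 1540 bases against 3369 over the same protein-coding genes, and their 3′ UTRs had a median of 378 bases against 1363. The motifs TTTNTTT and ATTTA were searched in the last 200 bases of the main transcript on the sense strand, where overlapping matches of both motifs each count. TTTNTTT was found in 13 of 46 members (28.3%) and in 33.3% of 14010 protein-coding genes, and ATTTA in 12 of 46 (26.1%) and in 37.4%. In members with a 3′ UTR under 200 bases, such as PSMA3 (109) and PSMA7 (124), the searched bases reach into coding sequence. The shares of members and of coding genes are thus not like for like. Members with ATTTA had a median enrichment of 0.23 in the mutant line and 0.03 in the WT line, against −0.16 and −0.29 for members without it. Over protein-coding genes these medians were 0.04 and −0.01 with ATTTA, against −0.22 and −0.19 without it. Of the genes whose windows are shown, PSMA3, PSMC3IP and PSMA7 hold ATTTA there, and PSMA2, PSMA6, PSME1, PSMD2 and PSMD8 do not.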

How the data were processed

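The deposited values are raw read counts per Ensembl gene, 1 set for each of the 12 libraries, with no pooling. Per the labels' protocols the libraries were stranded total RNA. Per the submitters' processing notes, bcl2fastq 2.20.0.422, cutadapt, STAR 2.4.0j, featureCounts 1.6.4 and hg19 were used; which annotation and strand setting were used, and how multi-mapping reads were handled, is not given in the sources used here. Identifiers were matched by ID to GENCODE release 44 on GRCh37 (55538 of 57773), and those without a match held 2.65% to 21.0% of a library's counts.

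Low genes were removed with filterByExpr (minimum count 10, minimum total 15). A single robust quasi-likelihood fit in edgeR 4.0.16 took the counts of all 12 libraries with TMM scaling (limma 3.58.1, R 4.3.3), the 4 groups as coefficients, 8 residual degrees of freedom and a common biological coefficient of variation of 0.157. P-values were Benjamini-Hochberg adjusted over all 22984 genes. DESeq2 1.42.0 was an alternative. CPM were computed from the TMM library sizes; RPKM divide them by annotated exon length; figures and sequence searches used Python 3.11.15, and the heat map adds 0.1 CPM before the log.

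The members and lists were chosen with earlier results of these data known. Values in every library are given for the 4 highest and 4 lowest called members of each comparison among those averaging 2 or more log2 CPM, and for the extremes of each role class by level, as far as the text needs them; the text names other members by fold change. Replicates differed by more than sampling noise (chi-square per degree of freedom 13.6 to 203). Alternatives were other scalings (total library size, DESeq2 size factors, TMM from coding genes), the DESeq2 test, other filters, only the groups compared, the GC trend removed, replicate blocks and leaving out each library; canonical lengths, members sharing little exon sequence and the 44 members that are not PSMC3IP or PSME3IP1 were added after the data were seen. A few of the results for genes outside the members are left out of the text.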

Additional observations from a re-analysis of the deposited data

How the results depend on the processing

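Scaling decided the split of the enrichments. With total library size the counts of members higher and lower were 38 and 0 in the mutant enrichment (by edgeR) and 37 and 1 in the WT enrichment, 0 higher between the precipitates, and 0 higher and 30 lower between the inputs. The WT enrichment then turned to 0.26 for PSMB2, 0.60 for PSMB5, 0.55 for PSMB7, 0.60 for PSMC1, 0.072 for PSMC3, 0.47 for PSMC5, 0.48 for PSMD10, 0.46 for PSMD11, 0.71 for PSMD13, 0.57 for PSMD5, 0.64 for PSMD7, 0.64 for PSME2 and 0.53 for PSMF1. The mutant enrichment turned to 0.63 for PSMB2, 0.91 for PSMB7, 0.64 for PSMC1, 0.41 for PSMC3, 0.21 for PSMC4, 0.75 for PSMC5, 0.90 for PSMD10, 0.90 for PSMD11, 0.83 for PSMD13, 0.097 for PSMD2, 0.44 for PSMD3, 1.004 for PSMD5, 0.85 for PSMD7, 0.14 for PSMD8, 0.86 for PSME2 and 0.32 for PSMF1, and PSMC3IP between the inputs to −0.0018. That scaling moves all genes together, so the sign change follows from its construction. With the GC trend removed the mutant enrichment of PSMA5 turned to −0.082 and that of PSMD3 to 0.045. Of the enrichment calls, 22 of 30 were kept in the mutant line and 21 of 27 in the WT line. Under this setting 6 members were higher and 7 lower between the precipitates. Between the inputs 1 was higher and 13 lower, with 8 of the 11 calls there kept. The cause was not tested.

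Between the precipitates the count of members higher was 6 by the DESeq2 test, 4 with at least 50 counts in 3 libraries, 1 of the 35 members that share little exon sequence and 1 of 44 without PSMC3IP and PSME3IP1. Among those 35, 4 were higher in the WT enrichment and 0 between the inputs. Without PSMC3IP and PSME3IP1, 1 was higher between the inputs, and 4 were with only the groups compared. DESeq2 called 1 member in the difference of enrichments.

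Leaving out 1 library at a time gave 0 to 3 higher and 2 to 5 lower between the precipitates, 11 to 12 and 15 to 18 in the mutant enrichment, 5 to 9 and 18 to 20 in the WT enrichment, 0 and 0 in the difference, and 0 to 3 and 2 to 11 between the inputs. The 5 of the WT enrichment came without WT RIP 3 or without WT input 3, and the 2 between the inputs without WT input 1.

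The labels do not say whether a replicate number marks a shared culture, and the correlations of same-numbered libraries ran from −0.521 to 0.612, so the numbers were not taken as pairs. With the replicate number as a block the counts were 2 higher and 4 lower between the precipitates, 12 and 18 in the mutant enrichment, 7 and 19 in the WT enrichment, 0 and 0 in the difference and 3 and 9 between the inputs. With a replicate block within each line they were 12 and 18 in the mutant and 7 and 20 in the WT enrichment. Among 22 alternatives for the enrichments, 8 of the 30 mutant calls and 5 of the 27 WT calls held in every one. Total library size, 1 of the 22, moves all genes upward and by itself kept 12 of the 30 and 9 of the 27. These counts therefore do not measure how stable the lower calls were under the other settings. Among 21 alternatives for the other comparisons, 2 of 6 calls between the precipitates and 2 of 11 between the inputs held in every one. Low counts limited PSMB8, PSMB9 and PSMB11.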
